A study of Mus musculus with 2 samples.

Results

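Elastic fibres give skin, vessel walls and other soft connective tissues their recoil. They consist of a core of cross-linked elastin laid down on microfibrils, which are beaded strings of fibrillin, and many tissues, tendon among them, also hold microfibrils with little elastin. The microfibril proteins also hold growth factors of the transforming growth factor beta family in the matrix. The 10 genes described here encode the fibrillins (Fbn1 and Fbn2), elastin (Eln), the microfibril-associated glycoproteins (Mfap2, Mfap4 and Mfap5), the elastin microfibril interfacer proteins (Emilin1 and Emilin2) and the elastic fibre-associated fibulins (Fbln2 and Fbln5). They were chosen by name as a gene family, with no threshold on their values but with earlier results of these data known. All 10 had a row among the 24866 genes of the table.

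The cells were sorted from femurs of 2 littermate C57/B6 mice at postnatal day 6, genotype CTSK-cre+ mTMG. In these animals Cre recombinase is driven by the promoter of cathepsin K, a protease best known from osteoclasts. Cells in which that promoter has ever been active, and all cells derived from them, carry GFP in their membrane. Every sorted cell was GFP-positive, there was 1 genotype and no untreated or Cre-negative group, and each animal filled 1 plate, so animal and plate cannot be told apart. A well was kept if it had 500 or more detected genes and no more than 20% of its counts from mitochondrial genes, which left 318 of 319 for animal 1 and 335 of 339 for animal 2, with median totals of 101207 and 119126 counts per well. All 95 well barcodes occur on both plates.

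Wells were sorted into 7 groups by lists of marker genes that hold none of the 10 genes. Over both animals 88 of 653 wells were fibroblast-like (Cd34, Ly6a and Igfbp6), 81 tendon-like (Tnmd, Scx and Fmod), 46 high in Ptn and Postn, 25 bone-forming-like (Ibsp and Bglap), 56 high in Prg4, 145 cartilage-like (Col2a1 and Acan) and 28 mural-like (Acta2, Rgs5 and Myh11), the smooth muscle and pericyte cells of vessel walls. The Prg4-high group is called by its leading gene, because 10 of 12 cartilage markers were also detected in at least 5% of its wells, against 3 of 5 articular and synovial markers. The other 184 wells were given no group. The labels call all cells mesenchymal. Summed endothelial markers reached 47.9 CPM (depth-scaled counts) at most in any group of either animal, erythroid markers 54.7 CPM, and the markers of neutrophils and lymphocytes 27.6 CPM. Other lists reached more: skeletal muscle markers 62.5 CPM in Prg4-high wells and Schwann cell markers 361 CPM in cartilage-like wells. In mural-like wells the markers of osteoclasts and macrophages reached 409.5 CPM and those of adipocytes 541 CPM. The 7 markers behind the group high in Ptn and Postn summed to 9986 and 8293 CPM there in animals 1 and 2. They also reached 5810 and 5255 CPM in fibroblast-like wells and 3445 and 3376 CPM in tendon-like wells. Counts are amplified reads and not shown to be single molecules, so a gene was called detected in a well at 5 counts or more. CPM below are sums over all wells of a group in 1 animal, scaled to the total counts of those wells. Intervals in brackets are exact 95% binomial intervals for shares of wells and cover counting error only.

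The 10 genes did not share 1 distribution. Mfap5, Fbln2 and Eln were higher in fibroblast-like wells than in the mean of the other 6 groups, Mfap4 was higher in tendon-like wells, Eln and Mfap5 were higher in mural-like wells, Mfap2 was lower in bone-forming-like wells, and Mfap5 was lower in cartilage-like and Prg4-high wells. These 9 differences, and 1 between fibroblast-like and tendon-like wells, passed an adjusted p of 0.05. When wells were grouped by 1 leading gene per list instead, only the fibroblast-like differences of Mfap5 and Fbln2 passed among these 10. Each test used counts summed per animal and group, 14 libraries in all, in edgeR's quasi-likelihood test with animal as a block and Benjamini-Hochberg adjustment over 13120 genes. The fold change is against the geometric mean of the other groups, and the ± beside it is the standard error of the fit. All 10 genes passed the filter on low counts. Fbn1, Fbn2, Eln, Mfap4 and Emilin2 each overlap a gene on the opposite strand (Gm9913, Gm26507, Gm30003, Mapk7 and Gm26561), and reads of the 2 strands could not be told apart, since the sources used here do not say whether counting used strand. Emilin2 held at most 49 counts in any library outside the fibroblast-like ones.

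In fibroblast-like wells 3 of the 10 genes passed as higher, where 0.518% of all genes tested did, and 0 passed as lower (0.0915% of all genes). Their median log2 fold change was 2.84, against 0.38 over all genes. In mural-like wells 2 of 10 passed as higher (0.884% of all genes), with medians of 0.76 and -0.22, and in tendon-like wells 1 of 10 did (0.305%), with medians of 1.31 and 0.18. Among lower calls there was 1 of 10 in bone-forming-like wells (0.152% of all genes; medians -1.26 and -0.16), 1 of 10 in Prg4-high wells (0.0534%; medians -2.12 and 0.04) and 1 of 10 in cartilage-like wells (0.206%; medians -1.58 and 0.46). In wells high in Ptn and Postn 0 of 10 passed, against 0.122% of all genes in either direction. There 3 of the 10 had an unadjusted p under 0.05 in edgeR, as did 986 of the 13120 genes, and DESeq2 called 1 of the 10 and 221 of all genes. Since the 10 genes were chosen with earlier results known, these shares do not describe a set picked blind to the data.

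**Figure D1:**
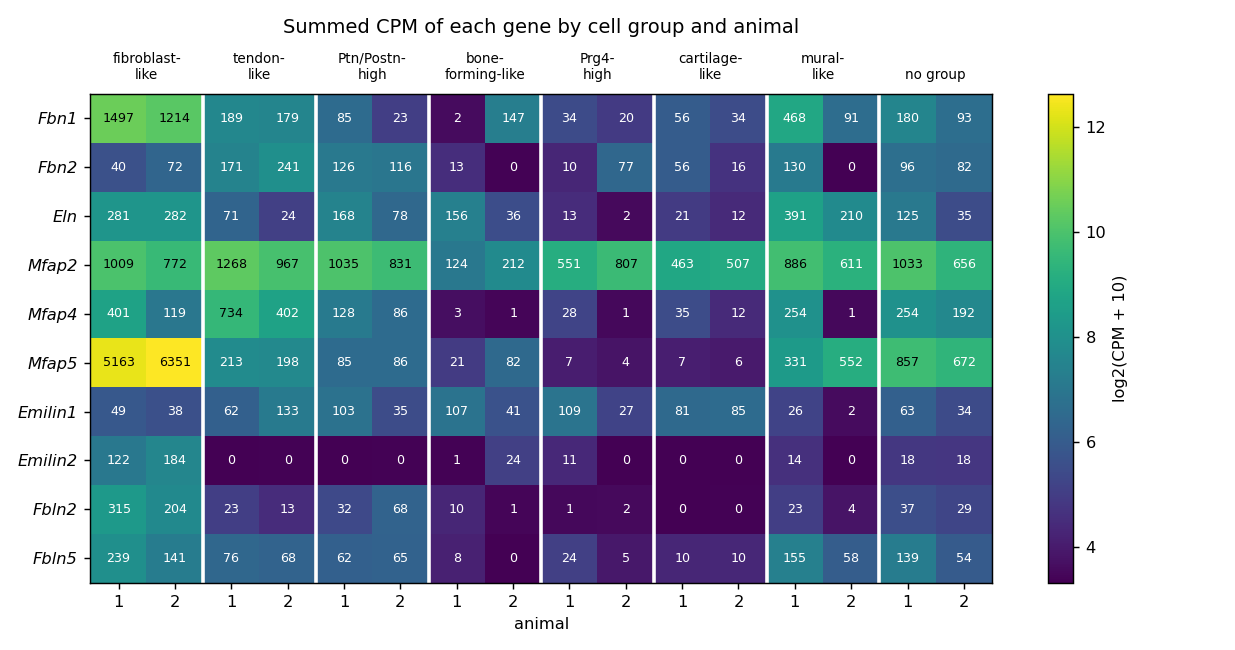
Summed CPM of the 10 genes (rows) in each cell group and animal (columns), with the printed number the CPM and the colour its log2 after adding 10. Mfap5 reached 5163 and 6351 CPM in the fibroblast-like columns and at most 552 in any other named group, while Mfap2 had at least 124 CPM in every column.

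The region just upstream of the start site is shown for a gene at each end of this range, Mfap2, counted in every group, and Emilin2, counted mostly in fibroblast-like wells. Of the 10 genes 6 had an entry in the promoter table, and in 3 of these the upstream bases lay outside every annotated exon. The sequences are RefSeq's, build GRCm38.p6, and run 5′ to 3′ on the strand of the gene, from 250 to 11 bases before RefSeq's start (Mfap2 at chr4:141010174-141010413 on the plus strand, Emilin2 at chr17:71311022-71311261 on the minus strand). The gene positions printed elsewhere are those of GENCODE, whose outermost start can differ from RefSeq's: the Emilin2 window lies inside the GENCODE span of the gene, between its exons, and the Mfap2 window lies just before the GENCODE start. Capitals mark matches to the searched motifs on either strand.
Mfap2: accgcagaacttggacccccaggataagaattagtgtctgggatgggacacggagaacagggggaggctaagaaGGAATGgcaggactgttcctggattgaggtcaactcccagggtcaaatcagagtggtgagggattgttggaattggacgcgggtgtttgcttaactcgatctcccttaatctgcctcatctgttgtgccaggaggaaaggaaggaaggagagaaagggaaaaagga
Emilin2: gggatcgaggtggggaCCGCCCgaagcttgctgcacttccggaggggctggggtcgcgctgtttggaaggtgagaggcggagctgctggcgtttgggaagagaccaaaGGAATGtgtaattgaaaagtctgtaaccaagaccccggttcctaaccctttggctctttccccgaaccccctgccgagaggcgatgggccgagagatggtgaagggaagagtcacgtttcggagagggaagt
The TEAD motif GGAATG occurred once in each window, and 12.2% of the same windows of 27025 genes hold it. A GC box, GGGCGG, shown here from the other strand, occurred once in the Emilin2 window and not in that of Mfap2, against 31.5% of all windows. The AP-1 motif TGANTCA (6.69% of all windows), the TATA box TATAAA (12.7%), the SMAD palindrome GTCTAGAC (0.174%) and the E-box CACGTG (5.71%) were in neither window. The motifs did not overlap each other, and a match is only a run of letters.

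Fbn1 encodes the main fibrillin of microfibrils, the gene mutated in Marfan syndrome (chr2:125300594-125507993, build GRCm38). It was counted at 1497 and 1214 CPM in fibroblast-like wells of animals 1 and 2, against means of 139 and 82.4 CPM over the other 6 groups. Both fibroblast-like libraries lay above all 12 others, and Fbn1 was detected in 31 of 38 wells (81.6% [65.7% to 92.3%]) and 41 of 50 wells (82.0% [68.6% to 91.4%]). The log2 fold change of 4.08 ± 0.77 did not pass the threshold (adjusted p = 0.0573). Next in order were mural-like wells with 468 and 90.9 CPM and tendon-like wells with 189 and 179 CPM, and these 2 groups overlapped. Bone-forming-like wells gave 2.06 CPM in animal 1 and 147 CPM in animal 2, where 1 well held 51.7% of the counts, so the 2 animals lay far apart. Wells high in Ptn and Postn gave 85.4 and 23.2 CPM, cartilage-like wells 55.9 and 34.5 CPM, and Prg4-high wells 33.7 and 19.6 CPM, and the first of these groups overlapped both of the others.

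Fbn2 encodes the fibrillin that is prominent in developing tissue (chr18:58008623-58210487), and it did not follow Fbn1. Tendon-like wells had 171 and 241 CPM, against means of 62.6 and 46.9 CPM over the other groups, and both tendon-like libraries lay above all 12 others. Fbn2 was detected there in 15 of 47 and 16 of 34 wells. The fold change of 2.65 ± 1.16 on the log2 scale did not pass (adjusted p = 0.588). Wells high in Ptn and Postn followed closely with 126 and 116 CPM, and mural-like wells had 130 CPM in animal 1 and none in animal 2, where 0 of 10 wells had a count. Fibroblast-like wells, where Fbn1 was high, had 40.1 and 72.1 CPM of Fbn2. In fibroblast-like minus tendon-like wells the fold change of Fbn2 was -1.97 ± 1.83 (adjusted p = 0.995) and that of Fbn1 2.70 ± 1.35 (adjusted p = 0.902), and neither passed.

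Eln encodes tropoelastin, the soluble unit of elastin (chr5:134702593-134747323). Fibroblast-like wells had 281 and 282 CPM, against means of 137 and 60.1 CPM over the other groups (log2 fold change 2.76 ± 0.40, adjusted p = 0.0177). Mural-like wells had 391 and 210 CPM, against means of 118 and 72.2 CPM (2.41 ± 0.39, adjusted p = 0.0164). The libraries of these 2 groups overlapped each other and none of the other 10. Eln nevertheless came from few wells: it was detected in 16 of 38 and 16 of 50 fibroblast-like wells and in 8 of 18 and 4 of 10 mural-like wells, and single wells held 37.6% of the fibroblast-like counts of animal 2 and 67.9% of the mural-like counts of animal 2. Without the fibroblast-like well of animal 2, which held the most Eln counts of all wells, Eln still passed in both groups. The log2 fold changes were then 2.34 and 2.49. The mural-like well with 67.9% was not left out, so how far the mural-like difference of Eln rests on it was not tested. Within single animals the fibroblast-like difference was 1.81 in animal 1 and 3.40 in animal 2, and neither group passed without the animal block (adjusted p = 0.105 and 0.0750).

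Among the other groups, wells high in Ptn and Postn had 168 and 78.1 CPM of Eln and bone-forming-like wells 156 and 36.0 CPM, but 1 well held 99.7% and 98.6% of the bone-forming-like counts. Tendon-like wells had 71.0 and 23.6 CPM and cartilage-like wells 21.0 and 11.5 CPM. Prg4-high wells were lowest at 12.7 and 1.78 CPM, with a log2 fold change of -4.03 ± 0.64 that did not pass (adjusted p = 0.0541).

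**Figure D2:**
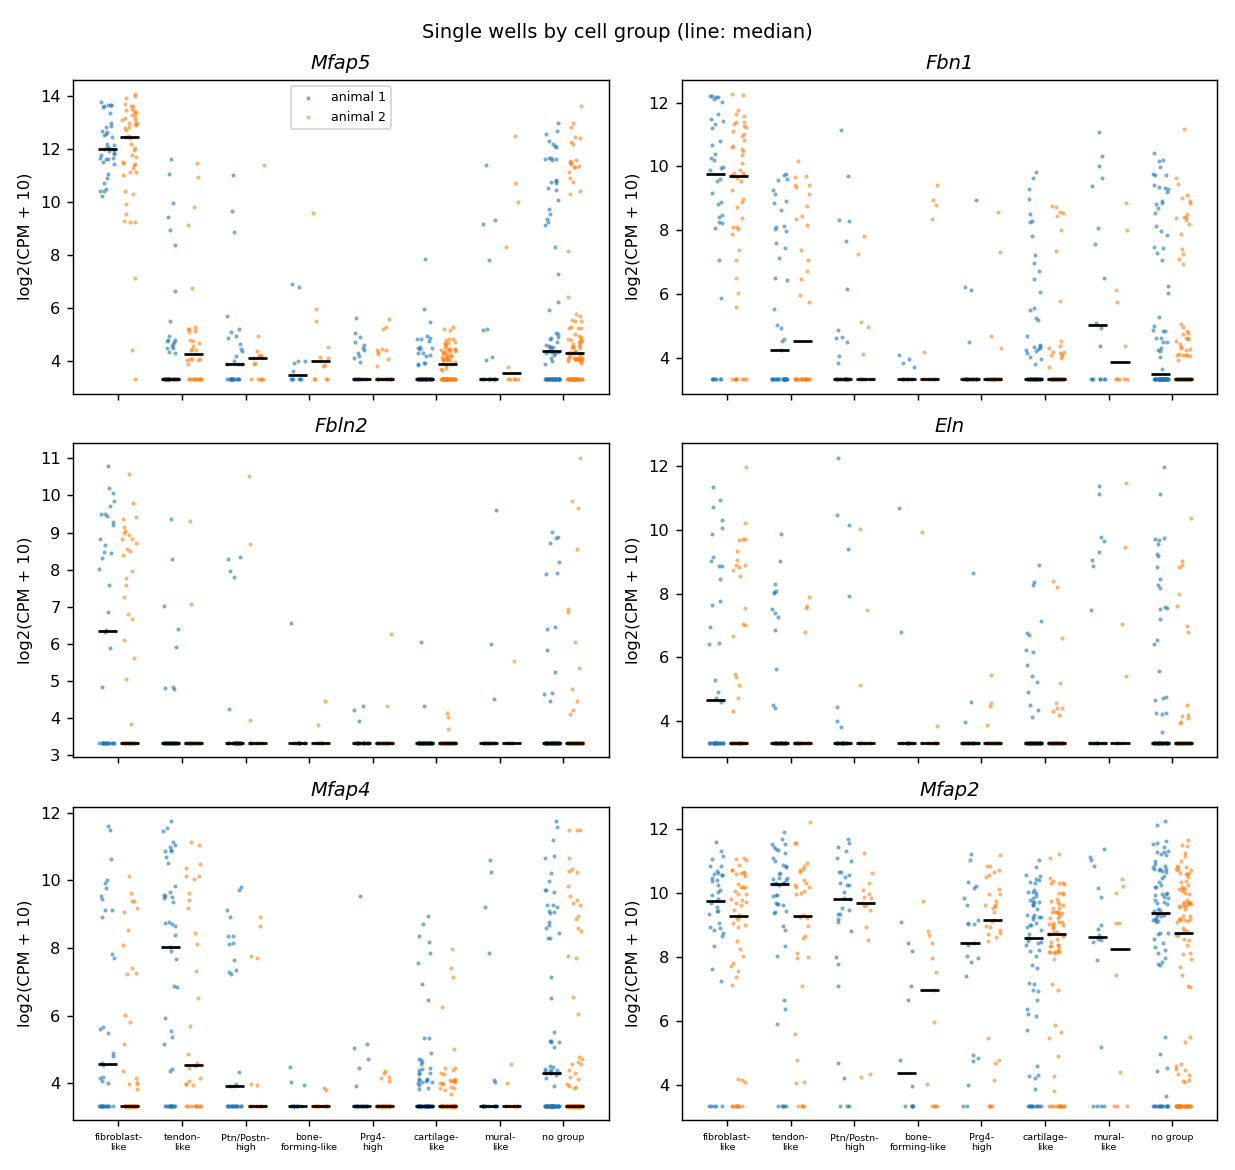
Log2(CPM + 10) of 6 genes in single wells by cell group, with animal 1 in blue, animal 2 in orange and a black line at the median of each. Mfap5 fills nearly every fibroblast-like well (38 of 38 and 48 of 50 wells at 5 counts or more), whereas Eln is carried by a minority of wells in each group.

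Mfap2 encodes the small glycoprotein that binds the fibrillin bead (chr4:141010418-141015984). It was detected in 248 of 318 wells of animal 1 (78.0% [73.0% to 82.4%]) and 238 of 335 wells of animal 2 (71.0% [65.9% to 75.8%]). Tendon-like wells had 1268 and 967 CPM, wells high in Ptn and Postn 1035 and 831 CPM, fibroblast-like wells 1009 and 772 CPM and mural-like wells 886 and 611 CPM. Each of these 4 groups overlapped the next, and none passed against the mean of the others, where tendon-like wells came nearest (log2 fold change 1.14 ± 0.24, adjusted p = 0.136). Prg4-high wells had 551 and 807 CPM and cartilage-like wells 463 and 507 CPM. Bone-forming-like wells stood below all 12 other libraries with 124 and 212 CPM, against means of 869 and 749 CPM (log2 fold change -2.28 ± 0.31, adjusted p = 0.0297). The gene was still detected in 5 of 12 and 7 of 13 of these wells. The bone-forming-like wells of animals 1 and 2 held 22581 and 13981 CPM of the 11 bone-forming markers, 1200 and 6004 CPM of the 12 cartilage markers, 26.8 and 1611 CPM of the 5 articular and synovial markers, and 426 and 1139 CPM of the 11 fibroblast markers, whose part in the difference was not tested. Within single animals the difference was -2.80 in animal 1 and -1.84 in animal 2.

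Mfap4 encodes a fibrinogen-domain glycoprotein that binds elastin and fibrillin (chr11:61485431-61488900). Tendon-like wells had 734 and 402 CPM, against means of 141 and 36.8 CPM over the other groups, and both libraries lay above all 12 others. For animal 2 this was a near tie, at 402.0 CPM against 401.2 CPM in fibroblast-like wells of animal 1. The log2 fold change was 4.59 ± 0.73 (adjusted p = 0.0375), with 3.84 in animal 1 and 5.55 in animal 2, and Mfap4 was detected in 28 of 47 and 14 of 34 wells. Without the animal block it did not pass (adjusted p = 0.134). Fibroblast-like wells had 401 and 119 CPM, wells high in Ptn and Postn 128 and 86.0 CPM, and mural-like wells 254 and 1.39 CPM, so the animals differed as much as these groups did. In bone-forming-like wells only 5 and 2 counts were found, 2.57 and 0.986 CPM (log2 fold change -5.68 ± 1.45, adjusted p = 0.175).

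Mfap5 encodes the other small fibrillin-binding glycoprotein (chr6:122505845-122529290) and set the fibroblast-like wells apart. They had 5163 and 6351 CPM, against means of 111 and 155 CPM over the other groups, and the log2 fold change was 6.85 ± 0.29 (adjusted p = 1.47e-05). It was detected in 38 of 38 and 48 of 50 of these wells, and the median well had 4161 CPM in animal 1 and 5610.1 CPM in animal 2. Each plate name carries a quadrant, and in all 8 quadrants, 4 a plate, the fibroblast-like wells were above the rest, at 4790 to 7089 CPM. The quadrants hold parts of the same wells and are not separate support.

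Mural-like wells had 331 and 552 CPM of Mfap5 and tendon-like wells 213 and 198 CPM, and these groups did not overlap. The log2 fold change of mural-like wells was 2.29 ± 0.32 (adjusted p = 0.00775), but their plain mean of 442 ± 157 CPM (SD, n = 2) lay below the 1019 ± 145 CPM of the other 6 groups, because the fold change is against a geometric mean and fibroblast-like wells dominate the plain one. Only 4 of 18 and 4 of 10 mural-like wells reached 5 counts, and 1 well held 73.6% of the counts in animal 1 and 53.0% in animal 2. The 11 fibroblast markers summed to 1046 and 875 CPM in mural-like wells, against 8899.5 and 9265 CPM in fibroblast-like ones. Over both animals Serping1 led them in mural-like wells at 353 CPM, with 5 counts or more in 15 of 28 wells. Dpt followed at 241 CPM (5 of 28 wells) and Thy1 at 114 CPM (7 of 28 wells), and 2 markers, Pi16 and Dpp4, were at 0 in mural-like wells. All 8 mural markers were found there, led by Acta2 at 5432 CPM and Myl9 at 2771 CPM. The 4 adipocyte markers summed to 541 and 51.4 CPM in mural-like wells, nearly all of it Fabp4, with Plin1 and Cidec at 0, and at most 79.9 CPM in either animal of any other named group. The 8 markers of osteoclasts and macrophages summed to 73.6 and 409.5 CPM, most of it Mmp9, against at most 248 CPM in other groups, with Adgre1, Ocstamp and Dcstamp at 0. What part these other cell types have in the mural-like values of Eln and Mfap5 was not tested.

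Mfap5 was lower in cartilage-like wells, 7.31 and 5.98 CPM against means of 970 and 1212 CPM (log2 fold change -4.32 ± 0.52, adjusted p = 0.00674), and in Prg4-high wells, 6.83 and 4.15 CPM against 970 and 1213 CPM (-4.83 ± 0.55, adjusted p = 0.0121). Fibroblast-like wells dominate these plain means too, so the CPM lie further apart than the fold changes, which are against geometric means. No Prg4-high well reached 5 counts, 0 of 23 [0% to 14.8%] and 0 of 33 [0% to 10.6%], and 3 of 69 and 1 of 76 cartilage-like wells did. Single counts were nonetheless common, since 387 of 653 wells held at least 1 count of Mfap5 and 168 held at least 5. The source of these low counts was not tested.

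Emilin1 encodes a fibre protein found where elastin meets the microfibril (chr5:30913402-30921277), and no group stood out for it. Its CPM lay between 26.7 and 133 in every library of 6 groups, with tendon-like wells at 62.2 and 133 CPM and cartilage-like wells at 81.1 and 84.6 CPM. Mural-like wells were below all 12 other libraries at 26.3 and 2.08 CPM, from 44 and 3 counts, with a log2 fold change of -2.85 ± 0.93 that did not pass (adjusted p = 0.207). Emilin2, its relative (chr17:71252172-71311978), was counted at 122 and 184 CPM in fibroblast-like wells, where 12 of 38 and 17 of 50 wells detected it. The means of the other groups were 4.41 and 4.18 CPM. Of the 12 other libraries 9 held 2 counts or fewer. The log2 fold change of 6.87 ± 1.38 did not pass (adjusted p = 0.0688), although both fibroblast-like libraries lay above all the others.

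Fbln2 encodes a fibulin that binds fibrillin and elastin (chr6:91212455-91272540). Fibroblast-like wells had 315 and 204 CPM, against means of 14.8 and 14.7 CPM over the other groups (log2 fold change 5.53 ± 0.60, adjusted p = 0.00459), and it was detected in 20 of 38 and 22 of 50 wells. Both libraries lay above all 12 others, the nearest being the wells high in Ptn and Postn at 31.8 and 68.2 CPM. Cartilage-like wells lay below all 12 others with 2 and 3 counts in all, 0.228 and 0.272 CPM, and no well reached 5 counts (0 of 69 [0% to 5.21%] and 0 of 76 [0% to 4.74%]). That log2 fold change of -5.70 ± 1.18 did not pass (adjusted p = 0.0738).

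Fbln5 encodes the fibulin needed in mice to assemble elastin onto microfibrils (chr12:101746565-101819055). Fibroblast-like wells had 239 and 141 CPM, against means of 55.8 and 34.3 CPM, and 14 of 38 and 18 of 50 wells detected it. Mural-like wells had 155 and 57.6 CPM, tendon-like wells 75.7 and 67.6 CPM and wells high in Ptn and Postn 62.0 and 65.3 CPM. The fibroblast-like and mural-like libraries overlapped, and the fold change of 2.92 ± 0.67 in fibroblast-like wells did not pass (adjusted p = 0.113). Bone-forming-like wells had 8.24 CPM in animal 1 and 0 of 2027698 counts in animal 2.

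**Figure D3:**
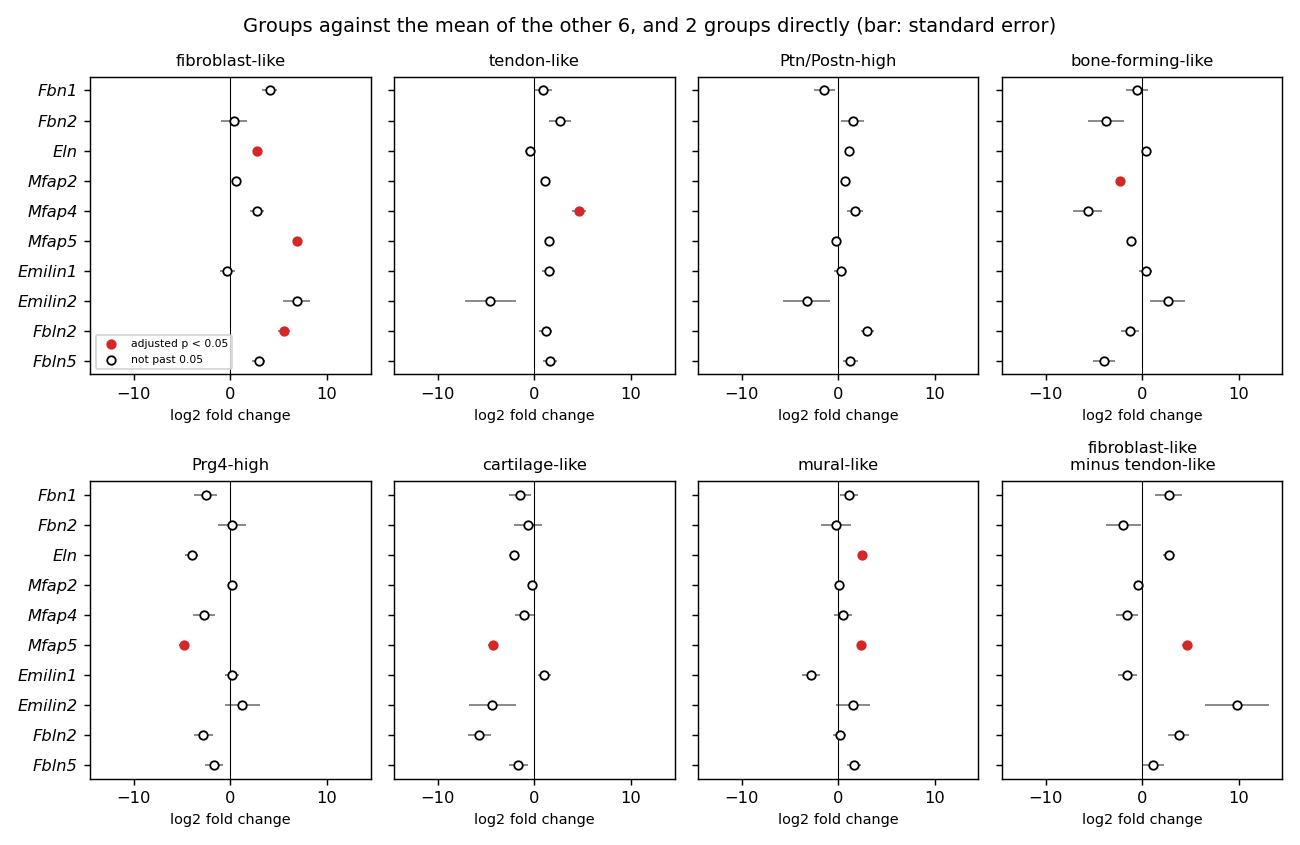
Log2 fold change of each gene (rows) in each group against the mean of the other 6, and in fibroblast-like minus tendon-like wells, with red points past an adjusted p of 0.05, open points not, and bars of 1 standard error. Fibroblast-like wells hold the red points of Eln, Mfap5 and Fbln2, and Mfap4 is red in tendon-like wells.

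Fibroblast-like and tendon-like wells, both of fibrous connective tissue type, were also compared directly. Mfap5 was higher in fibroblast-like wells, at 5163 and 6351 CPM against 213 and 198 CPM in tendon-like wells (log2 fold change 4.62 ± 0.56, adjusted p = 0.0265). It was 1 of 10 genes called, where 0.0838% of all genes were. Emilin2 had 122 and 184 CPM in fibroblast-like wells, against 0 and 0.262 CPM in tendon-like wells, a single count in all. Neither Eln (2.76 ± 0.65, adjusted p = 0.322) nor Fbln2 (3.74 ± 1.10, adjusted p = 0.667) passed here. Eln had 281 and 282 CPM in fibroblast-like wells against 71.0 and 23.6 CPM in tendon-like wells. Fbln2 had 315 and 204 CPM against 22.8 and 12.6 CPM. Mfap4 ran the other way, with 401 and 119 CPM in fibroblast-like wells against 734 and 402 CPM in tendon-like wells, and did not pass either (-1.59 ± 1.18, adjusted p = 0.959).

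By position, the fibroblast-like libraries lay above all 12 others for 4 of the 10 genes, Fbn1, Mfap5, Emilin2 and Fbln2, a pattern 2.87% of all genes showed. The tendon-like libraries did so for 2, Fbn2 and, by a near tie, Mfap4, against 1.14% of all genes. No share over all genes was computed for libraries below all 12 others, as given for Mfap2, Emilin1 and Fbln2. None was computed for groups that did not overlap each other either. Within each of the 8 plate quadrants, Fbn1, Mfap5, Emilin2 and Fbln2 had more CPM in fibroblast-like wells than in the other grouped wells, and Fbn2 and Mfap4 had more in tendon-like wells. The fibroblast-like difference of Eln held in 7 of 8 quadrants, its mural-like difference in 6 of 8 and the bone-forming-like difference of Mfap2 in 7 of 8. A quadrant held only 1 to 6 mural-like and 1 to 5 bone-forming-like wells, so the counts for these groups rest on few wells. The quadrants split the same wells that gave these differences, so they are not separate support for them. Only chosen pairs of gene and group were looked at, and no share over all genes was computed.

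Within fibroblast-like wells, Ly6a, a surface marker of connective tissue progenitors also known as Sca-1, was at 5 counts or more in 27 of 38 wells of animal 1 and 41 of 50 of animal 2. With these wells set against those under 5 counts, 0 of 10 genes passed in edgeR, and 1 of 12807 genes tested did (0.00781%). Of the 10 genes 1, Mfap5, had an unadjusted p under 0.05, against 960 of all genes, and DESeq2 called 0 of the 10 and 227 of all genes. Ly6a is itself one of the 11 markers that chose these wells. Only 11 and 9 wells lay under the limit, which restricts what this comparison could detect.

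**Figure D4:**
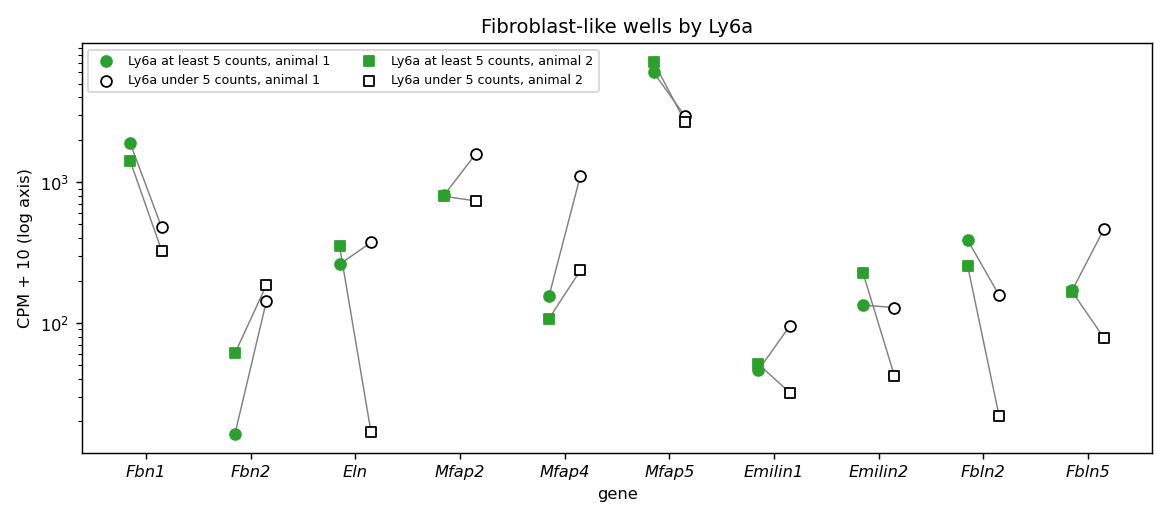
CPM + 10 on a log axis for each gene in fibroblast-like wells with Ly6a at 5 counts or more (green) and under 5 counts (open), with circles for animal 1 and squares for animal 2 and a line joining the pair. The Mfap5 and Fbn1 pairs slope down to the right and those of Fbn2 and Mfap4 slope up, and none passed the test.

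The values in the 2 gates differed in the same direction in both animals for Mfap5, Fbn1, Fbln2, Emilin2, Fbn2 and Mfap4. How many of all genes did so was not computed, so the shared direction is given as values only. Mfap5 had 5990 and 7109 CPM in wells with Ly6a, against 2919 and 2674 CPM in wells without (log2 fold change 1.45 ± 0.47, adjusted p = 0.575). Fbn1 had 1877 and 1399 CPM against 467 and 316 CPM (2.32 ± 1.25, adjusted p = 0.685), and Fbln2 had 377 and 243 CPM against 147 and 11.9 CPM (2.61 ± 1.19, adjusted p = 0.661). Emilin2 had 124 and 216 CPM against 118 and 32.2 CPM (1.63 ± 2.26, adjusted p = 0.959). The opposite order was seen for Fbn2, with 6.28 and 50.8 CPM in wells with Ly6a against 132 and 175 CPM in wells without (-2.02 ± 1.91, adjusted p = 0.853). Mfap4 likewise had 145 and 97.3 CPM against 1097 and 226 CPM (-1.64 ± 1.18, adjusted p = 0.761). Eln, Mfap2, Emilin1 and Fbln5 changed order between the animals. Eln had 251 CPM with Ly6a and 363 CPM without in animal 1, and 339 and 6.78 CPM in animal 2.

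Counted per cell, fibroblast-like wells detected a median of 5 of the 10 genes in animal 1 and 4 in animal 2. Tendon-like wells detected 3 in both animals, wells high in Ptn and Postn 2, mural-like wells 2 and 1.5, cartilage-like wells 2 and 1, and bone-forming-like and Prg4-high wells 1 in both. At least 4 genes were found in 76.3% and 68.0% of fibroblast-like wells, in 38.3% and 38.2% of tendon-like wells and in 0% of bone-forming-like wells of either animal. After each well was thinned to 20000 counts, which left out 3 shallower wells of animal 1, the fibroblast-like medians were 4 and 3, and the tendon-like medians were 2 in both animals. The order of fibroblast-like above tendon-like wells was thus the same at equal depth.

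Across wells, the highest correlations were among Fbn1, Mfap5, Fbln2 and Emilin2, the genes whose fibroblast-like libraries lay above all others. They are given as a description, over wells that share a plate, a library and depth. For log2(CPM + 10), Fbn1 and Mfap5 had a Pearson r of 0.55 over 318 wells of animal 1 and 0.59 over 335 wells of animal 2 (Spearman 0.40 in both). Mfap5 and Fbln2 had 0.52 and 0.48, Fbn1 and Fbln2 had 0.42 and 0.45, and Mfap5 and Emilin2 had 0.41 and 0.45. Within fibroblast-like wells alone, Fbn1 and Mfap5 kept 0.53 over 38 wells and 0.48 over 50. Of the wells with Fbn1, 54.3% and 55.3% also detected Mfap5, against 12.2% and 13.7% of the wells without Fbn1.

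Most other pairs were weaker. The 2 fibrillins had an r of 0.08 and 0.07, and Fbn2 was detected in 27.6% and 20.2% of wells with Fbn1, against 21.1% and 13.7% of wells without. The median over all 45 pairs was 0.16 in animal 1 and 0.14 in animal 2. With a pseudocount of 1 in place of 10 the medians were 0.15 and 0.13.

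**Figure D5:**
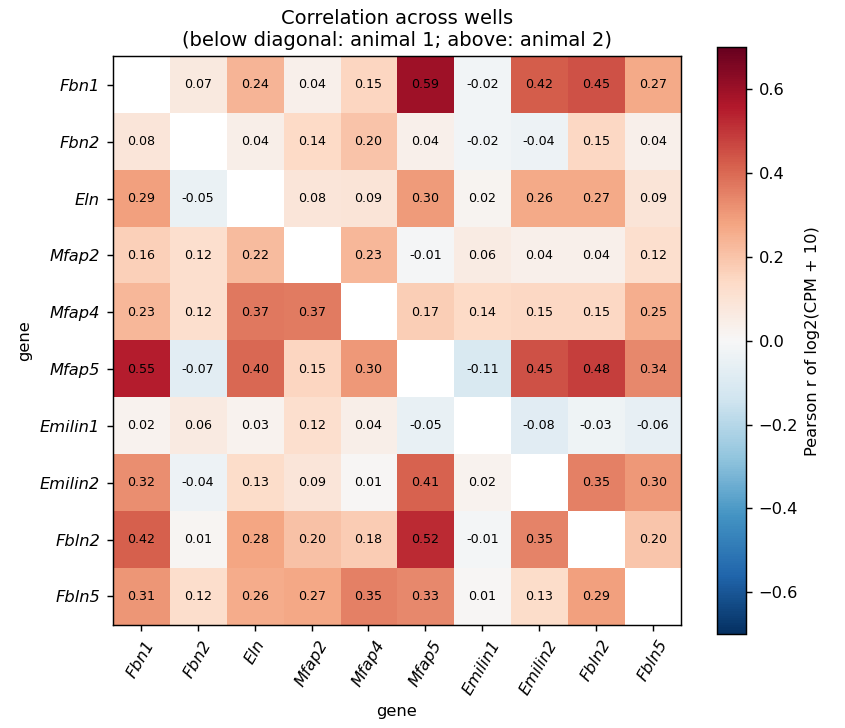
Pearson r of log2(CPM + 10) between each pair of genes across wells, with animal 1 below the diagonal (318 wells) and animal 2 above it (335 wells). The pairs of Fbn1, Mfap5 and Fbln2 reach 0.42 to 0.59, and the median over all pairs is 0.16 below the diagonal and 0.14 above it.

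The genes outside the 10 and outside the gating lists whose level ran most like the mean of the 10 were, by the lower r of the 2 animals, Nid1 (nidogen, of basement membranes; 0.50), Rarres2 (chemerin; 0.49), Fstl1 (0.49), Entpd2 (an ectonucleotidase; 0.46), Sepp1 (selenoprotein P; 0.45), Vcan (versican; 0.45), Gpc3 (a glypican; 0.44), Igfbp4 (0.44), Marcks (0.43) and Rnase4 (0.43). The median r over 13110 genes was 0.01 in each animal. These are r over 318 and 335 wells that share plate and depth.

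Of 56 other genes of elastic fibre assembly, crosslinking, growth factor binding, cell attachment and processing, 55 were in the table, 52 were tested and 5 passed in some comparison. The share of all genes that passed in some comparison was not computed, so only the counts per comparison below have a share beside them. In fibroblast-like wells 2 were higher and 1 lower, where 0.61% of all genes passed in either direction. Loxl1, a lysyl oxidase that crosslinks elastin, had 386 and 401 CPM there, and the other groups averaged 150 ± 5.58 CPM (SD, n = 2; log2 fold change 1.64 ± 0.27, adjusted p = 0.0340). Vcan, a large proteoglycan that binds fibrillin and fibulins, had 519 and 411 CPM in fibroblast-like wells and the other groups averaged 105 ± 18.6 CPM (2.77 ± 0.31, adjusted p = 0.00463). In cartilage-like wells 1 of the 52 was higher (0.625% of all genes) and 1, Vcan, was lower at 7.43 and 9.43 CPM (-3.85 ± 0.50, adjusted p = 0.0102).

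Bgn, a small leucine-rich proteoglycan, was lower in fibroblast-like wells, with 1759 and 1677 CPM and an average of 3000 ± 69.8 CPM in the other groups (-0.74 ± 0.13, adjusted p = 0.0495). Among the other groups 2 of the 52 were higher in tendon-like wells (0.305% of all genes), 1 in wells high in Ptn and Postn (0.107% of all genes) and 0 in mural-like wells, where 3 were lower (1.2% of all genes). Bgn was higher in tendon-like wells at 4287 and 4116 CPM (0.95 ± 0.12, adjusted p = 0.0134) and in cartilage-like wells at 3925 and 3420 CPM (0.71 ± 0.12, adjusted p = 0.0308), and lower in mural-like wells at 1605 and 1580 CPM (-1.07 ± 0.14, adjusted p = 0.00576). In fibroblast-like minus tendon-like wells Bgn was the 1 gene of the 52 called, and it was lower (-1.45 ± 0.17, adjusted p = 0.0224; 0.0838% of all genes were called in either direction). Mmp2, a gelatinase, was higher in wells high in Ptn and Postn at 1735 and 1053 CPM (1.44 ± 0.19, adjusted p = 0.0286) and in tendon-like wells at 1131 and 1010 CPM (1.26 ± 0.19, adjusted p = 0.0356). In mural-like wells Mmp2 was lower at 388 and 185 CPM (-1.46 ± 0.24, adjusted p = 0.0175). Itgb5, an integrin subunit that pairs with the alpha v chain, was lower in mural-like wells, with 0.598 and 0 CPM from 1 count, and the other groups averaged 71.9 ± 7.37 CPM (adjusted p = 0.00771).

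Set side by side, the animals gave the following shares of wells, whose intervals cover counting error within 1 animal only. For 9 of the 10 genes, all but Emilin2, the share of wells with 5 counts or more was larger in animal 1, whose wells had the lower median total. It was larger there for 8 genes at 1 count or more and for 9 after thinning to equal counts. How many of all genes had the larger share in animal 1 was not computed, so this count cannot be called particular to the 10. Mfap4 was detected in 28.0% [23.1% to 33.3%] of wells in animal 1 and 15.8% [12.1% to 20.2%] in animal 2, and Eln in 21.4% [17.0% to 26.3%] and 11.6% [8.41% to 15.6%]. Fbn1 was detected in 33.0% and 28.1% of wells, Fbn2 in 23.3% and 15.5%, Emilin1 in 23.0% and 17.6%, and Fbln5 in 18.9% and 13.4%. Mfap5 was detected in 26.1% of wells in animal 1 and 25.4% in animal 2, with 887 and 1269 CPM over all wells. Animal 1 also had more tendon-like wells (47 of 318) than animal 2 (34 of 335), and more wells high in Ptn and Postn (31 and 15). With 1 plate per animal no test was made, and the part of the group makeup in these shares was not tested.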

How the data were processed

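The deposited table holds whole-number counts per gene and well, made by the authors on build mm10 with CASAVA per the submitters' processing notes. Per the labels' protocols, each cell's transcripts were copied by template switching and amplified by PCR before pooling and Nextera XT library preparation. The aligner, the counting tool, duplicate removal and strandedness were not given in the sources used here, so a count is not taken as a molecule. No doublet caller was run.

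The members and lists were chosen with earlier results of these data known. From the table, kept wells (653 of 658, 9767 to 675621 counts each) were scored on 7 marker lists (53 of 60 genes scored) as the mean z-score of log2(CPM + 10). A well joined the best list at a score of at least 0.4 and a margin of at least 0.2. This scoring rule was chosen after seeing the data, and 148 wells lay within 0.1 of a threshold. Counts were summed per animal and group (at least 10 wells) and tested with edgeR 4.0.16 under R 4.3.3 (filterByExpr, TMM, a block for animal, leaving 6 residual degrees of freedom, marker genes left out). The 2 animals are littermates kept apart throughout, and the block pairs the groups of 1 animal. For the Ly6a comparison the minimum was lowered to 5 wells after seeing the data, since 1 of the 4 gated libraries held 9. Standard errors were obtained by dividing the size of the log2 fold change by the root of its F statistic. Alternatives were DESeq2 1.42.0 and its size factors, no filter, no block, wells thinned to 20000 counts, a margin of 0.4, 1 leading gene per group, and leaving out an animal or the well with most counts. Tables were made in Python 3.11.15 with pandas 2.3.3, numpy 2.4.6 and scipy 1.17.1, and the fit was tested on simulated data. The genes named are all 10 members, each gene of the wider elastic fibre list past the threshold, and the 10 genes most correlated with the members' mean.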

Additional observations from a re-analysis of the deposited data

Results flagged for a closer look

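The 184 wells that were given no group entered no comparison, yet each of the 10 genes was counted there above the limit that a count of 0 allows (3 counts of the library) in both animals. Mfap5 had 857 CPM in animal 1 and 672 CPM in animal 2, and Mfap2 had 1033.0 and 656 CPM. Fbn1 had 180 and 92.6 CPM, Fbn2 had 96.1 and 82.4 CPM, and Eln had 125 and 34.8 CPM. Mfap4 had 254 and 192 CPM, Emilin1 had 63.2 and 33.8 CPM, and Emilin2 had 18.5 and 17.7 CPM. Fbln2 had 37.0 and 28.9 CPM and Fbln5 had 139 and 53.6 CPM. Mfap5 reached 5 counts in 27 of 80 of these wells in animal 1 and 23 of 104 in animal 2. The 11 fibroblast markers summed to 1149 and 957 CPM in the same wells, and the 6 tendon markers to 1916 and 1421 CPM, but which cells they were was not tested.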

How the results depend on the processing

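No called difference changed direction. Nor did Fbn1 and Emilin2 in fibroblast-like, Eln in Prg4-high and Fbln2 in cartilage-like wells, or the correlations below. The other fold changes were not checked for direction. Of 10 called differences, 2 (Mfap5 and Fbln2 in fibroblast-like wells) passed under every alternative that gives a test; the cause of the other changes was not tested. Grouping by 1 leading gene ended the other 8 calls. Some log2 fold changes stayed large (Mfap5 4.45 between fibroblast-like and tendon-like and -5.58 in cartilage-like wells, Mfap4 3.39 in tendon-like, Eln 2.26 in fibroblast-like wells) and others shrank (Mfap5 -0.81 in Prg4-high and 1.36 in mural-like, Eln 1.45 in mural-like, Mfap2 -0.97 in bone-forming-like wells). It left 333 of 469 grouped wells in the same group. Without the replicate block, Eln ended in fibroblast-like (2.42) and mural-like wells (2.33) and Mfap4 in tendon-like wells (4.16). The stricter margin ended Eln in fibroblast-like wells (3.58, adjusted p = 0.145, range over alternatives 9.70e-06 to 0.145) and Mfap5 between fibroblast-like and tendon-like wells (4.53, adjusted p = 0.0602), and left 7 mural-like wells in animal 2, too few to test. Fbn1 in fibroblast-like wells passed with DESeq2, no filter, no block, thinned wells and the leading gene. Emilin2 there passed with DESeq2, no block, thinned wells and the stricter margin, and Eln in Prg4-high and Fbln2 in cartilage-like wells with DESeq2 and thinned wells, Eln also without its top well. DESeq2 size factors moved mural-like fold changes of Eln and Mfap5 to 2.57 and 2.45.

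The number of the 10 genes called under DESeq2, thinning, stricter margin and leading gene, where it moved by over 1.5 times, was 7, 7 and 5 in fibroblast-like wells under the first 3; 3, 2, 2 and 0 in Prg4-high wells under all 4 in that order, and 2 without the well with most counts; 5, 3, 2 and 0 in bone-forming-like wells; 3 by DESeq2 and thinning in cartilage-like wells, and 0 by leading gene; 3 by DESeq2 and thinning in tendon-like wells, and 0 by leading gene and 0 without the block; 4 by DESeq2 between fibroblast-like and tendon-like wells, and 0 by margin and leading gene; 1 in mural-like wells without the block and by leading gene; 1 by DESeq2 and margin in wells high in Ptn and Postn.

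All genes called under DESeq2 numbered 326 in fibroblast-like (80 as reported), 194 in tendon-like (43), 221 in Ptn and Postn-high (16), 641 in bone-forming-like (35), 274 in Prg4-high (27), 291 in cartilage-like (109) and 875 in mural-like wells (273), 216 between fibroblast-like and tendon-like wells (11) and 227 for Ly6a (1). Thinning gave 259, 115, 70, 116, 76 and 256 for the first 6, 62 for the direct comparison and 22 for Ly6a. The leading gene gave 9 in tendon-like, 4 in Ptn and Postn-high, 3 in Prg4-high and 414 in mural-like wells and 26 for the direct comparison. The stricter margin gave 62 in bone-forming-like and 51 in cartilage-like wells and 18 for the direct comparison. DESeq2 size factors gave 58 in cartilage-like wells and 0 for Ly6a, no filter 0 for Ly6a, and no block 123 in fibroblast-like wells and 3 for Ly6a. All genes called moved less under the stricter margin in fibroblast-like (116), Prg4-high (25) and Ptn and Postn-high wells (21). They also moved less by leading gene in bone-forming-like (39) and cartilage-like wells (123), and without the block in tendon-like (33) and mural-like wells (328). The number of genes tested can differ between settings, so no shares are given.

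The correlation of Fbn1 and Mfap5, a mean of 0.57 over the animals, was 0.50 with a pseudocount of 1 and 0.51 within fibroblast-like wells, and the median over pairs, 0.15, was 0.11 there.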
